A study of Mus musculus with 19 samples.

Results

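The enzymes of hepatic bile acid synthesis were followed in the livers of 19 mice, 1 RNA-seq library per mouse. They are 10 genes chosen by their place in the pathway: *Cyp7a1*, *Cyp8b1*, *Cyp27a1*, *Cyp7b1*, *Cyp2c70*, *Akr1d1*, *Hsd3b7*, *Amacr*, *Slc27a5* and *Baat*. They are 10 of the 54838 genes of the deposited table, and all 10 were among the 14743 genes with enough reads to be tested. The mice were male C57BL/6JOlaHsd, aged 4 weeks when the diets began, and were fed for 4 months. The normal diet (ND) held 13.9% of its energy as fat. The modified Western diet (WD), which the labels call a high fat diet, held 50.5% of its energy as fat and 1.25% cholesterol, with less choline and with sucrose and fructose added. Micro-osmotic pumps placed under the skin delivered saline or AN1284, an indoline derivative, for 8 weeks. The groups were ND saline (n = 3), ND with AN1284 at 1 mg/kg/day (n = 3), ND with AN1284 at 5 mg/kg/day (n = 3), WD saline (n = 3), WD with AN1284 at 1 mg/kg/day (n = 4) and WD with AN1284 at 5 mg/kg/day (n = 3). Every mouse carried a pump, so the saline groups share the surgery with the treated ones.

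Bile acids are made from cholesterol in hepatocytes, and their synthesis is a main way in which the body disposes of cholesterol. In the classical route CYP7A1, the rate-limiting enzyme, first hydroxylates the sterol ring, and CYP8B1 adds the hydroxyl group that makes cholic acid. In the alternative route CYP27A1 first oxidizes the side chain in mitochondria, and CYP7B1 then hydroxylates the ring of the oxysterol. Both routes share the later enzymes of the ring (HSD3B7, AKR1D1) and of the side chain (AMACR), and the bile acids are joined to coenzyme A by SLC27A5 and to taurine or glycine by BAAT. In mice, CYP2C70 further turns chenodeoxycholic acid into muricholic acids. Bile acids that return to the liver act on the nuclear receptor FXR (*Nr1h4*), and FGF15 from the intestine acts on FGFR4 with its partner β-klotho (*Klb*); both signals repress *Cyp7a1*, in part through SHP (*Nr0b2*).

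On GRCm38 the classical genes lie at chr4:6265612-6275633 (*Cyp7a1*, minus strand) and chr9:121914356-121916305 (*Cyp8b1*, minus strand). The alternative genes lie at chr1:74713574-74737892 (*Cyp27a1*, plus strand) and chr3:18071950-18243338 (*Cyp7b1*, minus strand). *Cyp2c70* is at chr19:40153353-40187333 on the minus strand, *Akr1d1* at chr6:37530173-37568815 on the plus strand, *Hsd3b7* at chr7:127800604-127803802 on the plus strand, and *Amacr* at chr15:10981756-10996626 on the plus strand. *Slc27a5* is at chr7:12988346-12998192 and *Baat* at chr4:49489422-49506557, both on the minus strand. The protein-coding gene model *Gm49388*, at chr7:127785608-127803802 on the same strand, spans the whole of *Hsd3b7* and had 0 reads in every library. The transcript 9430064I24Rik overlaps *Hsd3b7* on the other strand and had up to 66 reads. *Hsd3b7* itself had as few as 54 reads, and because the settings of the counting are not given in the sources used here, its values are uncertain. A pseudogene inside *Akr1d1* had up to 106 reads against at least 725 for *Akr1d1*. The other 8 genes had at least 445 reads in every library.

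RefSeq promoter windows of 300 bases (250 before and 50 after the start site, GRCm38.p6) were given for 5 of the 10 genes: *Cyp8b1*, *Cyp27a1*, *Cyp2c70*, *Akr1d1* and *Hsd3b7*. The letters CNAAGTCCA, a form of the element bound by HNF4A, were looked for on both strands because this factor is known to drive *Cyp8b1* and many other hepatocyte genes. They occurred in 1.21% of 32851 such windows and in 2 of the 5, those of *Cyp8b1* and *Cyp2c70*. The letters TCAAGGNC, a site of LRH-1, which also controls bile acid genes, occurred in 4.22% of the windows and in none of the 5. The bases from 250 to 51 before the start are printed 5′ to 3′ on the strand of the gene, with the HNF4A letters in capitals, for the 2 genes that hold them and for *Cyp27a1*, which does not. A match is a description of the sequence and not a binding site, and the data hold no measurement of binding.
Cyp8b1, chr9:121916356-121916555, minus strand: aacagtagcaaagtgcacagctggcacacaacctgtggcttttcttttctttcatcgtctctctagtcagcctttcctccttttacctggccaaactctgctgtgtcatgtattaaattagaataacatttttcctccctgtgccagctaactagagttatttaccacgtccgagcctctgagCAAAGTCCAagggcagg
Cyp2c70, chr19:40187337-40187536, minus strand: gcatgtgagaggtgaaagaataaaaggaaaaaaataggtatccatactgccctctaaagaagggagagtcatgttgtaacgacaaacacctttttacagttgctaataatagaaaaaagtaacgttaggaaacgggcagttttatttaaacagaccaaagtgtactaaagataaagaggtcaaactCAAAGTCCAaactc
Cyp27a1, chr1:74713285-74713484, plus strand: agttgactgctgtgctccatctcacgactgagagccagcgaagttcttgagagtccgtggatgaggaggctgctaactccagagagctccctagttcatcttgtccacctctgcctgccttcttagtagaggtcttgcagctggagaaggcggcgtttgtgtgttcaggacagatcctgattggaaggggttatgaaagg

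The letters lie 67 to 59 bases before the start of *Cyp8b1* and 64 to 56 bases before that of *Cyp2c70*, and both copies read CAAAGTCCA.

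Per kilobase of exon, the 10 genes spanned a wide range in ND saline, with *Cyp2c70* and *Slc27a5* at the top and *Cyp7a1* and *Hsd3b7* at the bottom. In ND saline the levels, in normalized counts per kilobase, were 10730 ± 2788 (SD, n = 3) for *Cyp2c70*, 9965 ± 2250 for *Slc27a5*, 7571 ± 609 for *Cyp27a1* and 6202 ± 732 for *Cyp8b1*. The ranges of *Cyp2c70* and *Slc27a5* overlapped, and that of *Cyp27a1*, 7058 to 8244, overlapped the lower end of both. Below them stood *Baat* at 4226 ± 469 and *Cyp7b1* at 3455 ± 500, whose ranges also overlapped. *Akr1d1* at 1421 ± 308 and *Amacr* at 1406 ± 133 could not be ordered. *Cyp7a1*, though rate-limiting, was at 360 ± 82.9 and *Hsd3b7* at 94.4 ± 50.9. The level of *Hsd3b7*, and so its place, is uncertain, because *Gm49388* overlaps it on the same strand and the counting settings are not given. In WD saline the order changed: *Slc27a5* led at 4847 ± 522, *Cyp27a1* and *Cyp8b1* followed at 3713 ± 346 and 3424 ± 1074 with overlapping ranges, and *Cyp2c70* had gone from the first place to the fifth, at 2112 ± 412. *Cyp7b1* was at 520 ± 68 per kilobase, under *Amacr* at 876 ± 94.6. Because the genes are ranked within the same libraries, this order does not depend on how libraries are scaled to each other.

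The libraries held 23326800 to 32596067 counted reads. The authors divided counts by size factors, which were 0.7592 to 0.7908 in ND saline and 1.0304 to 1.2679 in WD saline, and this choice matters for every comparison of diets. Scaling to library totals instead raised the median of all genes by 0.43 log2 units in WD against ND saline, and scaling by 14 hepatocyte markers raised it by 1.21. Hepatocyte markers were themselves lower in WD saline (13 of 14 passing lower, only *Apob* higher), with a summed level of 1833687 to 2170035 normalized counts against 4102209 to 4290880 in ND saline. Against WD saline, 13 of 14 passed higher at 1 mg/kg/day (2845793 to 3115868) and 9 of 14 at 5 mg/kg/day (2378824 to 2957900). In bulk liver, fewer hepatocytes and less RNA per hepatocyte cannot be told apart. Markers of other cells moved the other way in WD saline: 3 of 6 for cholangiocytes, 7 of 8 for macrophages, 5 of 6 for stellate cells and 4 of 5 for endothelial cells passed higher. Their summed levels in ND and WD saline were 1915 to 3049 and 7180 to 12569 for cholangiocytes, 4408 to 6640 and 11200 to 24167 for macrophages, and 5299 to 8031 and 16153 to 22885 for stellate cells. Of 4 T cell markers, *Cd4* passed lower, and none of 3 B cell markers passed. With AN1284 on the WD, 6 and 4 of the cholangiocyte markers and 5 and 3 of the stellate markers passed lower at 1 and 5 mg/kg/day, while macrophage sums stayed at 17483 to 25815 and 16551 to 20879. The part of these cell markers in the results for bile acid enzymes was not tested.

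The comparison of WD saline with ND saline asks what the diet alone did to the pathway. Of the 10 enzymes, 9 were lower in WD saline, among them *Cyp7b1* (6.62-fold), *Cyp2c70* (5.02-fold) and *Akr1d1* (3.8-fold), which were lower under each of the 3 scalings. The count of 9 became 7 lower with library totals, where *Cyp8b1* (−0.47, adjusted p = 0.105) and *Amacr* (−0.25, adjusted p = 0.0563) did not pass. With hepatocyte scaling the count was 3 lower and 2 higher (*Amacr*, *Baat*). Among all genes tested, 25.0% passed lower in this comparison, and 38.7% of the 3572 genes with a mean of at least 1000 normalized counts did. The median log2 fold change of the 10 enzymes was −1.02, beside 0.01 for all genes and −1.18 for the 14 hepatocyte markers. It was −0.59 beside 0.45 for all genes with library totals, and 0.20 beside 1.24 with hepatocyte scaling. In all 10 genes every WD saline liver was below every ND saline liver on the authors' scaling, a separation that 29.4% of all genes showed.

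**Figure D1:**
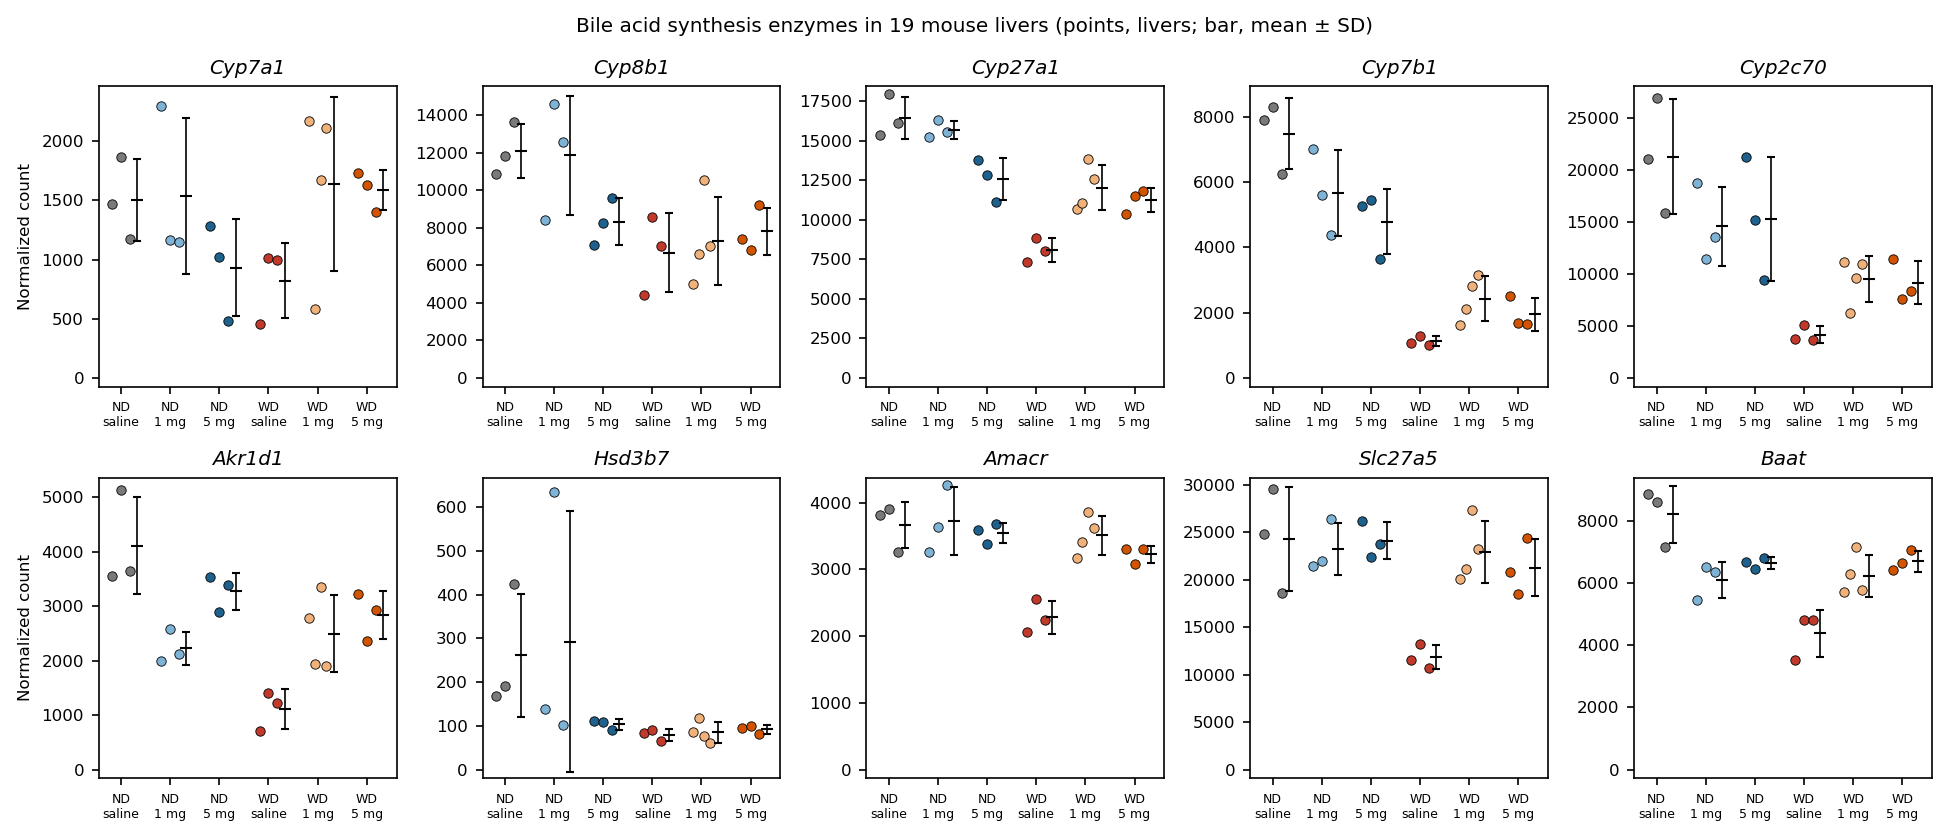
Normalized counts of the 10 enzymes in each of the 19 livers (vertical axis, linear, from 0), by diet and treatment; points are livers and bars the mean ± SD. On the authors' scaling the WD saline points lie below the ND saline points in all 10 genes, and for *Cyp7b1* the WD livers given AN1284, at 1627 to 3143, lie between the saline groups.

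For the classical route, *Cyp7a1* was at 1472, 1864 and 1173 normalized counts in the ND saline livers and at 455.2, 1012 and 1000 in the WD saline livers. The groups did not overlap, but 1 WD liver was far below the other 2, and the log2 fold change of −0.93 ± 0.48 (SE) did not pass (adjusted p = 0.114). Fitted with these 2 groups alone, the same value passed (adjusted p = 0.0362), and with hepatocyte scaling it was 0.29 (adjusted p = 0.561). *Cyp8b1* was at 10837, 11797 and 13645 on the ND and at 4433, 8579 and 7019 on the WD. It was lower on the WD by 1.87-fold (log2 −0.90 ± 0.26, adjusted p = 0.0074), but with library totals it did not pass (−0.47, adjusted p = 0.105). Without WD saline replicate 1, the lowest liver in both classical genes, the value of *Cyp8b1* was −0.63 and did not pass (adjusted p = 0.0548), and with hepatocyte scaling its sign turned to 0.32.

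In the alternative route, the oxysterol hydroxylase *Cyp7b1* was at 7904, 8294 and 6253 normalized counts in ND saline and at 1083, 1292 and 1007 in WD saline. The WD livers lay close together and retained 15.1% of the ND mean. Its log2 fold change, −2.73 ± 0.24 (adjusted p = 1.31e-07), was the 117th lowest of the 14743 genes tested, and it was −1.50 (adjusted p = 3.4e-06) with hepatocyte scaling. *Cyp27a1*, which begins this route, was at 15337, 17915 and 16102 against 7346, 8845 and 8014. Each group was tight, and the fall was 2.04-fold (log2 −1.03 ± 0.12, adjusted p = 1.84e-06) on the authors' scaling, whereas hepatocyte scaling gave 0.20.

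*Cyp2c70*, the enzyme of muricholic acid synthesis in mice, was at 21047, 26882 and 15842 normalized counts on the ND and at 3773, 5124 and 3652 on the WD. Every WD liver was far below the lowest ND liver, and the log2 fold change was −2.33 ± 0.29 (adjusted p = 6.05e-06), or −1.11 (adjusted p = 0.00121) with hepatocyte scaling. *Akr1d1*, which reduces the double bond of the ring, was at 3543, 5138 and 3649 against 703.6, 1404 and 1221. Its log2 fold change was −1.93 ± 0.24 (adjusted p = 6.86e-06), or −0.70 (adjusted p = 0.00687) with hepatocyte scaling. *Hsd3b7*, which oxidizes the ring after its hydroxylation, was at 168.7, 192.3 and 423.6 against 83.46, 90.62 and 64.67. It passed at −1.59 ± 0.48 (adjusted p = 0.0108), but 1 ND liver was far above the others, and without ND saline replicate 3 it did not pass (−1.18, adjusted p = 0.0633).

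The enzymes of the side chain and of conjugation fell by 0.68 to 1.02 log2 units on the authors' scaling. *Amacr*, the peroxisomal racemase, was at 3818, 3907 and 3269 normalized counts in ND saline and at 2064, 2551 and 2237 in WD saline (log2 −0.68 ± 0.11, adjusted p = 8.56e-05). *Slc27a5*, the bile acid-coenzyme A ligase, was at 24845, 29486 and 18554 against 11503, 13217 and 10734 (log2 −1.02 ± 0.16, adjusted p = 5.53e-05). *Baat* was at 8854, 8590 and 7164 against 3516, 4815 and 4823 (log2 −0.91 ± 0.13, adjusted p = 1.79e-05). No library overlapped between the diets in these 3 genes, yet with hepatocyte scaling their values were 0.54, 0.21 and 0.31, so their direction depends on the scaling.

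**Figure D2:**
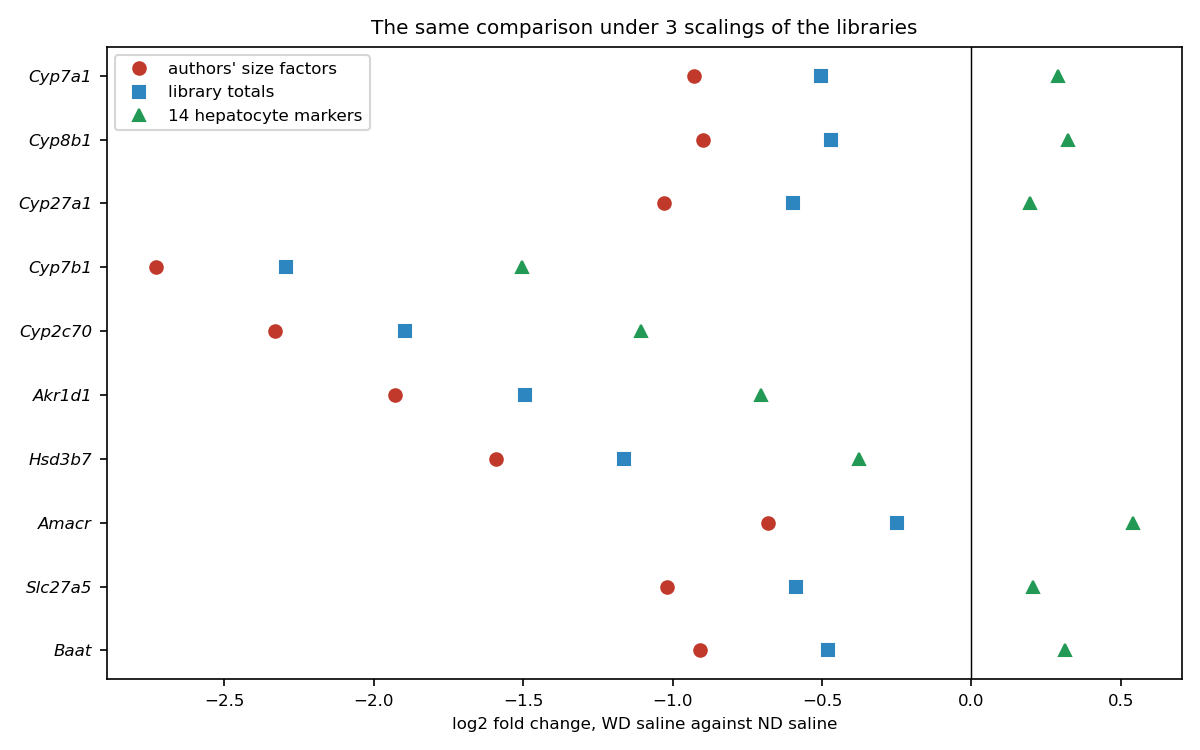
Log2 fold changes of the 10 enzymes between WD saline and ND saline (horizontal axis) with the authors' size factors, library totals and hepatocyte markers as the scaling. *Cyp7b1*, *Cyp2c70*, *Akr1d1* and *Hsd3b7* lie below 0 under all 3 scalings, while the other 6 cross 0 with hepatocyte markers.

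AN1284 at 1 mg/kg/day on the WD asks whether the drug changed these levels while the diet went on. Of the 10 enzymes, 7 were higher than in WD saline: *Cyp27a1*, *Cyp7b1*, *Cyp2c70*, *Akr1d1*, *Amacr*, *Slc27a5* and *Baat*, while *Cyp7a1*, *Cyp8b1* and *Hsd3b7* did not pass. The 7 became 6 with library totals, and with hepatocyte scaling 3 enzymes were lower (*Cyp8b1*, *Cyp27a1*, *Baat*) and none higher. Among all genes, 10.3% passed higher, and 19.3% of the abundant genes did. The median of the 10 enzymes was 0.77, against 0.01 for all genes and 0.75 for the hepatocyte markers. It was 0.53 against −0.23 for all genes with library totals, and −0.04 against −0.80 with hepatocyte scaling. In the 7 genes no AN1284 liver overlapped WD saline, which 15.0% of all genes showed in this direction. At 5 mg/kg/day the same 7 genes passed higher, against 5.51% of all genes and 13.6% of the abundant ones. This count was 4 with library totals, and with hepatocyte scaling 1 was higher (*Akr1d1*, 0.69, adjusted p = 0.0102) and 2 lower. Here 8 enzymes did not overlap WD saline, the 7 and *Cyp7a1*, against 16.2% of all genes. The median of the enzymes was 0.70, beside −0.01 for all genes and 0.55 for the hepatocyte markers. It was 0.47 beside −0.23 for all genes with library totals, and −0.02 beside −0.72 with hepatocyte scaling. Both doses were compared with the same 3 WD saline livers, so the 2 comparisons are not independent.

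*Akr1d1* was at 2785, 1934, 3350 and 1893 normalized counts at 1 mg/kg/day and at 3229, 2357 and 2922 at 5 mg/kg/day, all above the highest WD saline liver at 1404. The log2 fold changes were 1.18 ± 0.23 (adjusted p = 0.00107) and 1.40 ± 0.24 (adjusted p = 0.00105), and the group means reached 60.6% and 69% of ND saline, from 27% in WD saline. *Cyp2c70* was at 11144, 6295, 9621 and 10929 and at 11483, 7594 and 8339, again all above WD saline. Its changes were 1.16 ± 0.27 (adjusted p = 0.00435) and 1.12 ± 0.29 (adjusted p = 0.0151), and its means reached 44.7% and 43% of ND saline from 19.7%. At the higher dose *Cyp2c70* did not pass once WD saline replicate 1 (adjusted p = 0.0579), WD saline replicate 3 (adjusted p = 0.0725) or AN1284 replicate 1 (adjusted p = 0.0757) was left out. With hepatocyte scaling *Cyp2c70* passed at neither dose, and *Akr1d1* only at 5 mg/kg/day.

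*Cyp7b1* rose to 1627, 2126, 2821 and 3143 normalized counts at 1 mg/kg/day and to 2520, 1680 and 1645 at 5 mg/kg/day, so the livers of both doses lay between the saline groups without overlap. The log2 fold changes were 1.07 ± 0.22 (adjusted p = 0.00193) and 0.77 ± 0.24 (adjusted p = 0.0401). At the higher dose *Cyp7b1* did not pass when WD saline replicate 1 (adjusted p = 0.11) or 3 (adjusted p = 0.149) was left out, nor without AN1284 replicate 1 (adjusted p = 0.179), 2 (adjusted p = 0.0514) or 3 (adjusted p = 0.0568). With library totals it did not pass at this dose (0.54, adjusted p = 0.0801), and with hepatocyte scaling it passed at neither dose. *Cyp27a1* was at 10658, 11080, 13814 and 12550 and at 10383, 11521 and 11844, above the WD saline range of 7346 to 8845. Its changes were 0.57 ± 0.11 (adjusted p = 0.000935) and 0.48 ± 0.12 (adjusted p = 0.0102) on the authors' scaling, and −0.24 and −0.23 with hepatocyte scaling. Without WD saline replicate 1 the change of *Cyp27a1* at 5 mg/kg/day did not pass (adjusted p = 0.0532).

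*Slc27a5* was at 20057, 21071, 27312 and 23169 normalized counts at 1 mg/kg/day and at 20819, 18445 and 24419 at 5 mg/kg/day, within the ND saline range or close to it. Its log2 changes were 0.95 ± 0.15 (adjusted p = 0.000187) and 0.84 ± 0.16 (adjusted p = 0.00212), to 94.3% and 87.4% of ND saline. *Amacr* was at 3167, 3417, 3859 and 3616 and at 3303, 3084 and 3308 (0.62 ± 0.11, adjusted p = 0.000334, and 0.51 ± 0.11, adjusted p = 0.0062), to 95.9% and 88.2%. *Baat* was at 5704, 6286, 7168 and 5775 and at 6403, 6628 and 7071 (0.52 ± 0.12, adjusted p = 0.00426, and 0.63 ± 0.13, adjusted p = 0.00344). In these 3 genes every AN1284 liver was above every WD saline liver. With hepatocyte scaling *Amacr* and *Baat* turned to negative values at both doses, and *Slc27a5* passed higher at neither dose. With library totals *Baat* did not pass at 1 mg/kg/day (0.281, adjusted p = 0.0703), nor did *Amacr* at 5 mg/kg/day (0.281, adjusted p = 0.0752).

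The classical genes did not pass at either dose. *Cyp7a1* was at 2169, 583.9, 1674 and 2114 normalized counts at 1 mg/kg/day, a 4-liver spread that ran from within WD saline to above every ND saline liver. Its log2 change was 0.91 ± 0.45 (adjusted p = 0.161), and without replicate 2, the low liver, it was 1.35 and passed (adjusted p = 0.0152). At 5 mg/kg/day *Cyp7a1* was at 1729, 1627 and 1404, above all WD saline livers, with a change of 1.03 ± 0.48 (adjusted p = 0.186). *Cyp8b1* was at 5027, 6608, 10560 and 7031 and at 7407, 6818 and 9200, overlapping WD saline at both doses (0.13 ± 0.24, adjusted p = 0.746, and 0.27 ± 0.26, adjusted p = 0.568). *Hsd3b7* was at 85.77, 117.3, 75.95 and 60.55 and at 95.69, 98.86 and 80.74, with changes of 0.07 ± 0.45 (adjusted p = 0.94) and 0.21 ± 0.48 (adjusted p = 0.838). The errors of *Cyp7a1* and *Hsd3b7* leave room for changes of about the size seen in the other enzymes.

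**Figure D3:**
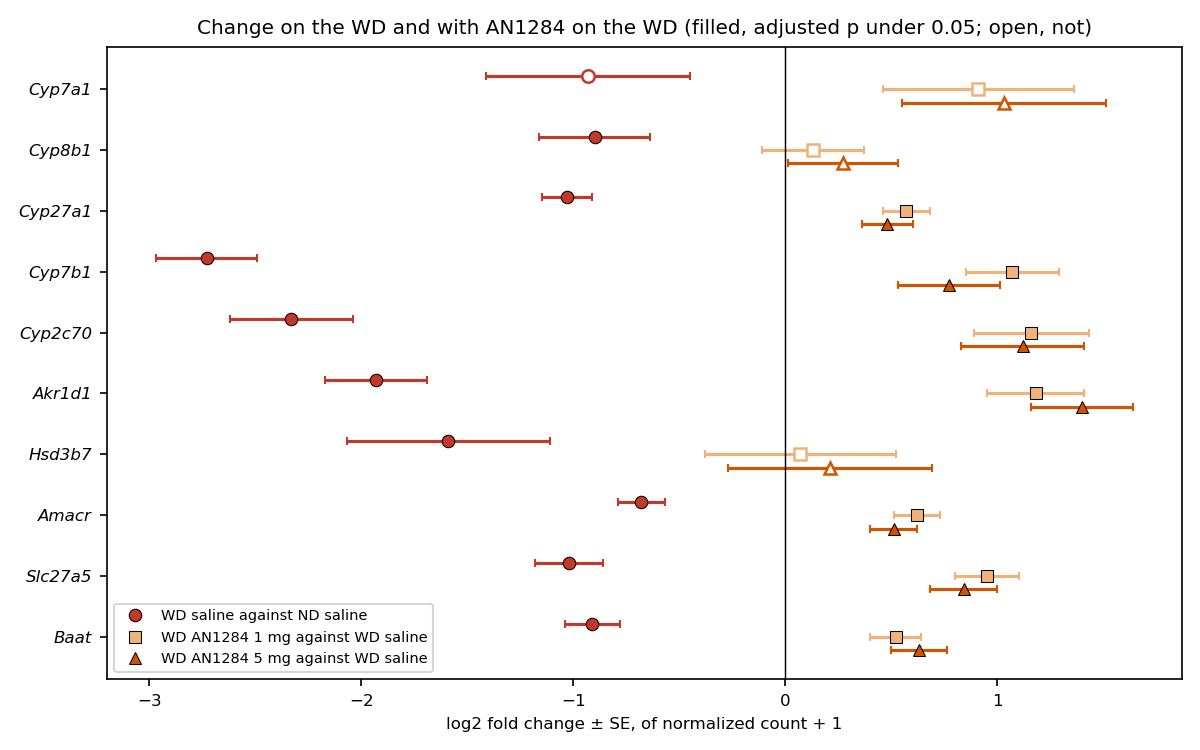
Log2 fold changes ± SE of the 10 enzymes on the authors' scaling (horizontal axis) for WD saline against ND saline and for each AN1284 dose against WD saline, filled where the adjusted p was under 0.05. The diet values lie left of 0, at −0.68 to −2.73, and the 7 enzymes filled at both doses lie right of 0; with hepatocyte scaling 6 of the diet values lie right of 0.

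Against each other, the 2 doses on the WD gave no difference that passed in the 10 enzymes. The differences, 5 mg/kg/day minus 1 mg/kg/day, ran from −0.30 (*Cyp7b1*, SE 0.22) to 0.22 (*Akr1d1*, SE 0.23), with an adjusted p of 0.998 for each. The SE was 0.45 for *Cyp7a1* and *Hsd3b7*, so the values do not show that the doses were alike. By limma 0% of all 14743 genes passed in this comparison, with 776 at an unadjusted p under 0.05.

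Compared with ND saline, the livers on the WD with AN1284 remained lower in part of the pathway. At 1 mg/kg/day 7 enzymes passed lower: *Cyp8b1* (−0.77), *Cyp27a1* (−0.46), *Cyp7b1* (−1.66), *Cyp2c70* (−1.16), *Akr1d1* (−0.74), *Hsd3b7* (−1.53) and *Baat* (−0.40), against 13.5% of all genes. With library totals 3 passed lower, beside 5.65% of all genes. With hepatocyte scaling 2 were lower and 2 higher (*Amacr* and *Slc27a5*), beside 2.51% and 48.4% of all genes. At 5 mg/kg/day 4 passed lower, *Cyp27a1* (−0.55), *Cyp7b1* (−1.96), *Cyp2c70* (−1.21) and *Hsd3b7* (−1.38), against 14.1% of all genes. Here 3 passed lower with library totals, beside 6.16% of all genes. Hepatocyte scaling gave 2 lower and 2 higher, beside 2.21% and 53.6% of all genes. *Cyp7b1* was at 32.5% and 26% of the ND saline mean at 1 and 5 mg/kg/day (adjusted p = 6.5e-05 and 4.01e-05), up from 15.1% in WD saline. *Hsd3b7* was at 32.5% and 35.1%, from 30.4%, and *Cyp8b1* at 60.4% and 64.6%, from 55.2%. When single libraries were left out, *Hsd3b7* lost its call at 5 mg/kg/day in 4 of 6 fits (without ND saline replicate 3, adjusted p = 0.175, or any 1 of the AN1284 livers, 0.0764 to 0.0968). At 1 mg/kg/day *Akr1d1* lost it in 3 of 7 fits (without ND saline replicate 2 or AN1284 replicate 2 or 4, adjusted p up to 0.0906) and *Baat* in 3 (without ND saline replicate 1 or 2 or AN1284 replicate 1, up to 0.0865). *Cyp8b1* lost it in 2 (without ND saline replicate 3 or AN1284 replicate 1, up to 0.0926) and *Hsd3b7* in 1 (without ND saline replicate 3, 0.105). *Slc27a5* and *Amacr* were at −0.07 and −0.06 at 1 mg/kg/day and did not pass.

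On the ND, AN1284 raised none of the 10 enzymes on the authors' scaling or with library totals, and with hepatocyte scaling *Amacr* passed higher at 1 mg/kg/day (0.33, adjusted p = 0.0174). At 1 mg/kg/day *Akr1d1* was lower, at 1991, 2572 and 2120 normalized counts (log2 −0.87 ± 0.24, adjusted p = 0.0476), where 1.74% of all genes passed lower. All 3 livers were below the ND saline range, but the call was lost under library totals, hepatocyte scaling, voom and 4 other settings, and in 5 of 6 fits that left out a library (adjusted p up to 0.131). At 5 mg/kg/day *Cyp27a1* was lower, at 13749, 12828 and 11142 (−0.39 ± 0.12, adjusted p = 0.0414), where 3.89% of all genes passed lower. These livers too were all below ND saline, and this call was likewise lost under library totals, hepatocyte scaling and voom, and in 5 of 6 fits that left out a library (adjusted p up to 0.157). *Cyp7b1*, at 7002, 5612 and 4394 and at 5261, 5459 and 3640, had changes of −0.42 (adjusted p = 0.339) and −0.66 (adjusted p = 0.0815).

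An interaction term of the same limma fit gave the effect of AN1284 on the WD minus its effect on the ND. It was positive and passed for the same 7 enzymes at 1 mg/kg/day, where 9.39% of all genes passed in this direction, and for the same 7 at 5 mg/kg/day, where 8.54% did. *Akr1d1* was at 2.05 and 1.71 log2 units, and at 5 mg/kg/day *Cyp7a1*, which did not pass, was at 1.81 (adjusted p = 0.07). With library totals 5 enzymes passed at each dose: *Cyp27a1* (0.24, adjusted p = 0.213) and *Amacr* (0.21, adjusted p = 0.299) lost the call at 1 mg/kg/day, and *Amacr* (0.17, adjusted p = 0.413) and *Slc27a5* (0.45, adjusted p = 0.113) at 5 mg/kg/day. The difference combines a higher level with AN1284 on the WD and a level that was equal or lower with AN1284 on the ND. With hepatocyte scaling 1 enzyme was positive and 3 negative at 1 mg/kg/day, beside 0.985% and 76.3% of all genes. At 5 mg/kg/day 1 was positive and 1 negative with this scaling, beside 1.16% and 68.3% of all genes.

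The ratio of enzymes within a liver does not depend on the scaling of libraries. The classical route, as the mean log2 level of *Cyp7a1* and *Cyp8b1*, minus the alternative route, as the mean of *Cyp27a1* and *Cyp7b1*, was −1.46, −1.38 and −1.33 in ND saline and −0.99, −0.20 and −0.10 in WD saline. The means differed by 0.96 log2 units (−1.39 ± 0.07 against −0.43 ± 0.49, SD, n = 3), and the groups did not overlap. Of the alternative genes only *Cyp7b1* fell far beyond the classical ones: *Cyp27a1* was at −1.03, close to *Cyp7a1* at −0.93 and *Cyp8b1* at −0.90, and *Cyp7b1* was at −2.73 on the authors' scaling. In the WD livers with AN1284 the difference was −0.33, −1.30, −0.57 and −0.70 at 1 mg/kg/day and −0.52, −0.40 and −0.30 at 5 mg/kg/day. These values overlapped WD saline, and all 7 lay above all 3 ND saline livers. On the ND it was −1.19 ± 0.06 at 1 mg/kg/day and −1.53 ± 0.04 at 5 mg/kg/day. The values are descriptive and were given no test, and leaving out WD saline replicate 1 moved the WD saline mean to −0.15.

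Within the alternative route, *Cyp7b1* fell further than *Cyp27a1*. The log2 level of *Cyp7b1* minus that of *Cyp27a1* was −0.96, −1.11 and −1.36 in ND saline and −2.76, −2.77 and −2.99 in WD saline. It was −2.71, −2.38, −2.29 and −2.0 at 1 mg/kg/day and −2.04, −2.78 and −2.85 at 5 mg/kg/day on the WD, so the WD livers, 10 in all, lay below the 9 ND livers, whose lowest was −1.82. Within the classical route, *Cyp8b1* minus *Cyp7a1* was 3.03 ± 0.46 in ND saline and 3.06 ± 0.24 in WD saline. With AN1284 on the WD it was 2.28 ± 1.01 (n = 4) and 2.29 ± 0.36 (n = 3), and these ranges overlapped that of ND saline. At 5 mg/kg/day all 3 livers, at 2.07 to 2.71, lay below WD saline at 2.81 to 3.28, while at 1 mg/kg/day the range of 1.21 to 3.50 overlapped it. *Cyp2c70* minus *Cyp8b1*, the ratio of the 2 enzymes that shape the murine bile acid pool, was 0.96, 1.19 and 0.22 in ND saline and −0.23, −0.74 and −0.94 in WD saline. With AN1284 on the WD it was 1.15, −0.07, −0.13 and 0.64 at 1 mg/kg/day and 0.63, 0.16 and −0.14 at 5 mg/kg/day, so all 7 livers were above WD saline and their means of 0.40 and 0.22 lay between the saline groups. On the ND with AN1284 this ratio ran from −0.35 to 1.16 at 1 mg/kg/day and from −0.03 to 1.58 at 5 mg/kg/day. The lowest of these ND livers lay within the WD saline range, so the ratio did not separate the diets.

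**Figure D4:**
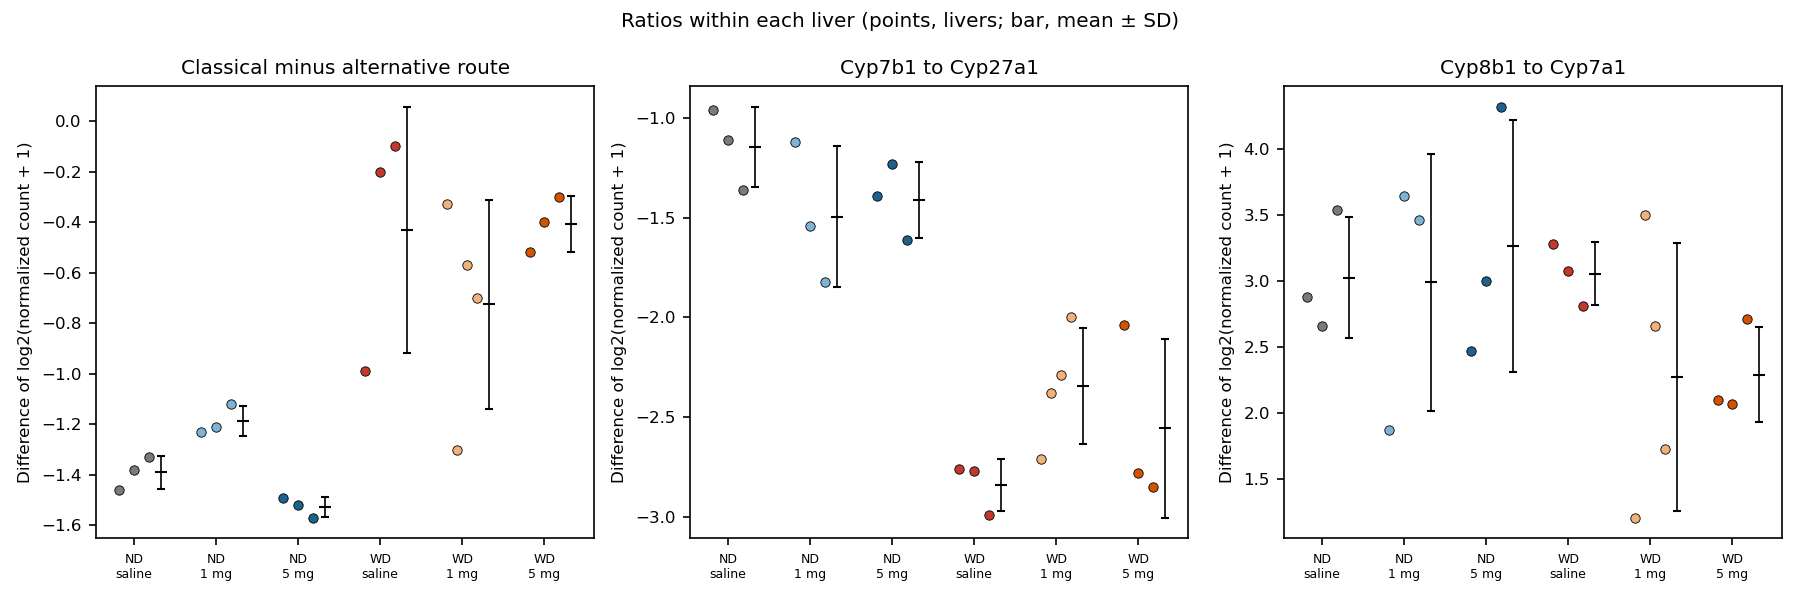
Differences of log2(normalized count + 1) between enzymes within each liver (vertical axis), by diet and treatment; points are livers and bars the mean ± SD. The route difference lies at −1.57 to −1.12 in the ND livers and at −1.30 to −0.10 in the WD livers, and the *Cyp7b1* minus *Cyp27a1* difference separates the diets.

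Other enzymes and partners of the pathway were read from a separate list. Of 17 listed, 16 were tested, and on the WD 7 passed lower and 1 higher, with a median of −0.29. Among the abundant genes 38.7% passed lower, so the share of this list was near that background. With hepatocyte scaling 13 of 17 were higher and none lower, beside 84% and 1.96% of all genes. *Fdx1*, the ferredoxin that passes electrons to mitochondrial cytochromes such as CYP27A1, was lower by 2-fold (adjusted p = 6.05e-06). *Por*, the reductase that supplies microsomal cytochromes P450, was at −0.90 (adjusted p = 0.000858). *Cyp2a12*, which hydroxylates recycled bile acids in mice, was at −0.95 (adjusted p = 4.92e-05), and *Akr1c14*, a hydroxysteroid dehydrogenase, at −0.67 (adjusted p = 0.00126). With hepatocyte scaling these 4 had positive values of 0.22 to 0.55. With AN1284 on the WD, 4 of the 16 passed higher at 1 mg/kg/day and 3 at 5 mg/kg/day on the authors' scaling, with medians of 0.29 and 0.26, beside 19.3% and 13.6% of the abundant genes. *Por* rose by 0.90 (adjusted p = 0.00142) and 0.68 (adjusted p = 0.0268), and *Fdx1* by 0.41 (adjusted p = 0.0188) at 1 mg/kg/day, whereas *Cyp2a12* was at 0.11 (adjusted p = 0.614). With hepatocyte scaling 14 and 11 of 17 passed lower, beside 78.5% and 75.3% of all genes.

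Among 13 regulators of the pathway, 8 passed lower and 3 higher on the WD (median −0.34), beside 25.0% and 28.1% of all genes and 38.7% and 19.7% of the abundant ones. With hepatocyte scaling 11 were higher and none lower, beside 84% and 1.96% of all genes. *Hnf4a*, a nuclear receptor of hepatocytes, was lower (−0.90, adjusted p = 2.83e-06), as was *Fgfr4* (−0.69, adjusted p = 8.67e-05), and both turned to positive values, 0.33 and 0.53, with hepatocyte scaling. *Fgfr4* was at 1310, 1503 and 1272 normalized counts in ND saline and at 860.9, 943.3 and 728 in WD saline, without overlap. *Nr0b2*, which encodes SHP, was at 996.6, 932.5 and 1662 against 567.8, 1064 and 486.6. It passed at −0.80 (adjusted p = 0.0276) although 1 WD liver lay inside the ND range. *Nr1h4* was at −0.31 (adjusted p = 0.0112) and *Klb* at 0.35 (adjusted p = 0.0437), each with overlapping livers. *Nr1i2*, the xenobiotic receptor PXR, was at −0.79 (adjusted p = 0.000249), and *Ppara*, the fatty acid receptor, was higher at 1.07 (adjusted p = 2.8e-05).

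With AN1284 on the WD, 6 of the 13 regulators passed higher at 1 mg/kg/day and 4 at 5 mg/kg/day on the authors' scaling (medians 0.38 and 0.41), beside 10.3% and 5.51% of all genes. With hepatocyte scaling 8 and 7 passed lower, beside 78.5% and 75.3% of all genes. On the authors' scaling *Hnf4a* rose by 0.66 (adjusted p = 0.000103) and 0.55 (adjusted p = 0.00214), and *Fgfr4* by 0.39 (adjusted p = 0.0128) and 0.48 (adjusted p = 0.00901). *Nr0b2* was at 498.9, 842.2, 726.7 and 578.6 and at 1459, 762.2 and 1331, overlapping WD saline (−0.04, and 0.78 with adjusted p = 0.09). *Klb* rose at 1 mg/kg/day (0.40, adjusted p = 0.0365), and *Nr1h4* was within 0.09 log2 units of WD saline at both doses. On the ND, 4 regulators passed higher at 1 mg/kg/day, where 2.9% of all genes did, and 4 higher and 1 lower at 5 mg/kg/day, where 6.27% and 3.89% did. *Nr0b2* on the ND was at 591 to 612 normalized counts at 1 mg/kg/day and 500 to 613 at 5 mg/kg/day. These livers all lay below ND saline, at 933 to 1662.

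*Cyp7a1* is known to vary over the day, and genes of the circadian clock were therefore read in the same livers. *Nr1d1*, which encodes the repressor REV-ERBα, was at 135.4, 401.7 and 464.1 normalized counts in ND saline, below every other liver, the next being 1117. WD saline stood at 1117, 1140 and 1242 and passed higher (log2 1.99, adjusted p = 6.2e-05, and 3.21 with hepatocyte scaling). ND livers with AN1284 were at 1423, 1747 and 1257 and at 2133, 2376 and 2618, and WD livers with AN1284 at 2136, 1777, 2676 and 2010 and at 1675, 1648 and 2087. *Dbp*, a clock output, ranged from 31.61 to 51.11 in ND saline and from 85.41 to 188.5 in WD saline. On the ND with AN1284 it was at 39.15, 121.6 and 71.48 at 1 mg/kg/day, the first within the ND saline range, and at 230, 224.5 and 1079 at 5 mg/kg/day. On the WD with AN1284 *Dbp* was at 321.9, 60.34, 788.3 and 475.4 at 1 mg/kg/day and at 78.29, 123.1 and 160.4 at 5 mg/kg/day. Over the 19 livers, which share the 6 groups, Pearson's r of *Cyp7a1* was −0.10 with *Nr1d1* and −0.11 with *Dbp*, and 0.02 and 0.16 over deviations from the group means. Of 15 clock genes, 2 passed higher and 4 lower on the WD, where 28.1% and 25.0% of all genes did. With hepatocyte scaling 8 passed higher and none lower, beside 84% and 1.96% of all genes. Of the 15, 3 and 1 passed higher with AN1284 on the WD at 1 and 5 mg/kg/day (10.3% and 5.51% of all genes), and on the ND at 5 mg/kg/day 5 passed higher and 3 lower, beside 6.27% and 3.89% of all genes. The time of day at collection is not given per mouse in the sources used here, and the part of the clock genes in the values of *Cyp7a1* was not tested.

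Genes of male liver fell along with *Cyp7b1*, whose level in mouse liver is known to be higher in males. Of 11 male-biased genes, 9 passed lower on the WD and none higher (median −2.29), beside 25.0% of all genes passing lower. *Hsd3b5* was at −8.26, *Serpina1e* at −7.07, *Ugt2b38* at −2.68 and *Elovl3* at −2.45. With hepatocyte scaling 6 passed lower and none higher, beside 1.96% and 84% of all genes. With AN1284 on the WD, 4 of the 11 passed higher at each dose on the authors' scaling, beside 10.3% and 5.51% of all genes. *Hsd3b5* was at 6.27 and 5.18 and *Ugt2b38* at −0.08 and 0.29. With hepatocyte scaling 3 and 2 passed higher, beside 1.38% and 1.06% of all genes, and 6 and 5 lower, beside 78.5% and 75.3%. Against ND saline, 11 at 1 mg/kg/day and 10 at 5 mg/kg/day passed lower on the authors' scaling (medians −1.31 and −1.23), beside 13.5% and 14.1% of all genes. On the ND at 5 mg/kg/day 4 passed lower, beside 3.89% of all genes. Of 9 female-biased genes only 3 could be tested, of which *Cyp2b9* (4.73) and *Cyp2a4* (3.68) were higher on the WD. The part of these genes in the level of *Cyp7b1* was not tested.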

How the data were processed

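Liver RNA of 19 mice was sequenced from stranded poly-A libraries. Per the submitters' notes, the authors used cutadapt 1.18 for trimming, TopHat2 2.1.1 for alignment (GRCm38) and HTSeq 0.6.0 for counting. The deposited table holds these counts, counts that the authors normalized with DESeq2 1.22.1, and the authors' fold changes and p-values, which were not used. The deposited count columns hold a question mark for 6252 genes, so they are not plain counts (unit: other), and the planned edgeR test was replaced by limma on the normalized counts.

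Normalized counts were taken as log2(count + 1). Genes at 10 or more in at least 3 libraries were tested (14743) with limma 3.58.1 (trend, robust variance, R 4.3.3) in 1 model of 6 groups, with Benjamini-Hochberg adjustment over all of them and a threshold of 0.05. Fold changes of low genes are understated on this scale. Each library is a separate mouse, and no sample is labelled with its sequencing run. Alternatives were pseudocounts of 0.5 and 10, no filter, library totals, hepatocyte markers as the scale, limma voom on counts, no trend or robust variance, only the groups compared, a replicate block, and each library left out in turn. The test was tried on simulated data.

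All 10 members are named. Lists (other enzymes, regulators, clock, male- and female-biased genes, cell types) were counted whole, and up to 4 genes of each, by smallest adjusted p on the WD, were open to naming, with *Nr0b2*, *Nr1h4*, *Fgfr4*, *Klb*, *Nr1d1* and *Dbp* in any case. Members and lists were chosen with earlier results of these data known. Levels per kilobase used GENCODE exon lengths of GRCm38, and promoters are RefSeq's.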

Additional observations from a re-analysis of the deposited data

Results flagged for a closer look

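In 7 enzymes of bile acid synthesis, the effect of AN1284 differed between the diets on the authors' scaling. This was by the interaction test in the limma model (effect on the WD minus effect on the ND, log2 units, Benjamini-Hochberg adjusted p). Among all genes, 9.39% passed with a positive difference at 1 mg/kg/day and 8.54% at 5 mg/kg/day. At 1 mg/kg/day the difference was 2.05 for *Akr1d1* (adjusted p = 0.000428), 1.71 for *Cyp2c70* (0.00583), 1.48 for *Cyp7b1* (0.00409) and 1.00 for *Slc27a5* (0.00427). It was 0.94 for *Baat* (0.00127), 0.64 for *Cyp27a1* (0.00903) and 0.60 for *Amacr* (0.0105). At 5 mg/kg/day it was 1.71 for *Akr1d1* (adjusted p = 0.0031), 1.64 for *Cyp2c70* (0.011), 1.42 for *Cyp7b1* (0.00822) and 0.92 for *Baat* (0.00265). It was 0.87 for *Cyp27a1* (0.00209), 0.83 for *Slc27a5* (0.0175) and 0.55 for *Amacr* (0.0232). With library totals as the scaling, *Cyp27a1* (0.24, 0.213) and *Amacr* (0.21, 0.299) did not pass at 1 mg/kg/day, nor did *Amacr* (0.17, 0.413) and *Slc27a5* (0.45, 0.113) at 5 mg/kg/day. For *Amacr* at 5 mg/kg/day the call was lost without replicate 2 of the ND 5 mg/kg/day group (adjusted p = 0.0586) or without WD saline replicate 1 (0.0665). The remaining 3 enzymes did not pass: *Cyp7a1* was at 0.93 (adjusted p = 0.332) and 1.81 (0.07), *Cyp8b1* at 0.19 (0.735) and 0.81 (0.12), and *Hsd3b7* at 0.26 (0.81) and 1.42 (0.145). *Cyp7a1* passed at 5 mg/kg/day (2.103, adjusted p = 0.0475) without replicate 1 of the ND 5 mg/kg/day group. With hepatocyte scaling 4 enzymes passed at 1 mg/kg/day and 2 at 5 mg/kg/day, counting both directions. Of all genes, 0.985% then passed positive and 76.3% negative at 1 mg/kg/day, and 1.16% and 68.3% at 5 mg/kg/day. Of the 7, *Amacr*, *Cyp27a1* and *Slc27a5* then turned to negative values at both doses, and *Baat* at 1 mg/kg/day. Both diets enter with their own saline livers, and the 2 doses share them.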

How the results depend on the processing

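Of 1660 values of the 10 enzymes under alternative settings, 1532 stayed on their side of the threshold without a called value turning, 89 lost the call, 14 gained it and 25 reversed. Among the 1532 were 69 values that passed in neither fit and changed sign, 32 of them under another scaling. Every reversal came with hepatocyte scaling. For WD against ND saline these were *Amacr* 0.54, *Baat* 0.31, *Cyp27a1* 0.20, *Cyp8b1* 0.32 and *Slc27a5* 0.21. For 1 mg/kg/day against WD saline they were *Amacr* −0.18, *Baat* −0.29, *Cyp27a1* −0.24 and *Cyp8b1* −0.68, and for 5 mg/kg/day *Amacr* −0.21, *Baat* −0.089 and *Cyp27a1* −0.23. Against ND saline they were *Amacr* 0.36, *Baat* 0.021 and *Slc27a5* 0.35 at 1 mg/kg/day and *Amacr* 0.33 and *Slc27a5* 0.33 at 5 mg/kg/day. In the interaction they were *Amacr* −0.51, *Baat* −0.175, *Cyp27a1* −0.48, *Cyp8b1* −0.93 and *Slc27a5* −0.12 at 1 mg/kg/day and *Amacr* −0.35, *Cyp27a1* −0.026 and *Slc27a5* −0.068 at 5 mg/kg/day. Hepatocyte scaling multiplies each library by 1 factor, so it moves all genes of a comparison by about the same amount. The median of all genes moved by 1.214 log2 units for WD against ND saline. It moved by −0.802 and −0.71 for 1 and 5 mg/kg/day against WD saline. Why the hepatocyte markers changed was not tested.

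The number of enzymes that passed moved as follows. With hepatocyte scaling it was 5 for WD against ND saline, 3 for each dose against WD saline, 4 for 1 mg/kg/day on the WD against ND saline, and 4 and 2 for the interactions at 1 and 5 mg/kg/day. With library totals it was 4 for 5 mg/kg/day against WD saline and 3 for 1 mg/kg/day on the WD against ND saline, and it was 5 for each interaction. For 1 mg/kg/day on the ND it went from 1 to 0 with voom, no filter, no trend or robust variance, only the groups compared, library totals and the replicate block. For 5 mg/kg/day on the ND it went from 1 to 0 with voom, no filter, no trend or robust variance and both scalings, and to 3 with only the groups compared. With each library left out in turn it ranged from 8 to 9 (WD against ND saline), 7 to 8 and 4 to 7 (1 and 5 mg/kg/day against WD saline, 4 without WD saline replicate 1), 0 to 0 (dose against dose), 0 to 1 (each dose on the ND), 5 to 7 and 3 to 4 (WD with 1 and 5 mg/kg/day against ND saline), and 7 to 7 and 6 to 8 (interactions). The route difference then ranged from −1.42 to −1.35 in ND saline, −1.22 to −1.17 and −1.54 to −1.51 with 1 and 5 mg/kg/day on the ND, −0.59 to −0.15 in WD saline, and −0.86 to −0.54 and −0.46 to −0.35 with AN1284 on the WD.

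Over all genes, calls went from 7820 to 12830 (WD against ND saline), 3376 to 11915 and 1849 to 11392 (1 and 5 mg/kg/day against WD saline), 0 to 8 (dose against dose), 683 to 3588 (ND at 1 mg/kg/day), 4488 to 7591 and 4543 to 8322 (WD with AN1284 against ND saline), and 3044 to 11529 and 2973 to 10356 (interactions) with hepatocyte scaling. With library totals 1849 became 3155, 683 became 1556, 3044 became 5355 and 2973 became 5005. Calls at 1 mg/kg/day on the ND were 80 with only the groups compared, and those at 5 mg/kg/day on the ND were 864 with voom against 1499. The split of higher and lower calls was 4136 and 3684 on the WD, 7631 and 1343 with library totals and 12538 and 292 with hepatocyte scaling. For 1 mg/kg/day against WD saline it was 1520 and 1856, 716 and 4083, and 206 and 11709, and for 5 mg/kg/day 813 and 1036, 432 and 2723, and 158 and 11234.

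Same-numbered libraries showed little shared deviation. Of 45 pairs, 12 had a correlation over 0.1 (−0.27 to 0.24), and 4 of 18 libraries correlated best with their own number. With 3 or 4 livers a group, these values cannot decide whether the numbers pair the mice. A replicate block took the calls over all genes for 1 mg/kg/day against WD saline from 3376 to 2497. With the replicate block *Akr1d1* lost its call at 1 mg/kg/day on the ND (adjusted p = 0.0594) and for 1 mg/kg/day on the WD against ND saline (−0.63, 0.0674), while *Cyp8b1* gained one for 5 mg/kg/day on the WD against ND saline (−0.64, 0.0169) and in the interaction at 5 mg/kg/day (0.81, 0.0378). The limits are 3 or 4 livers a group, low counts of *Hsd3b7* (54 to 649 reads), and unknown sequencing run and time of day per mouse.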

Other observations

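The genes whose levels were most like those of the 4 route enzymes over the 19 livers were partly shared within the alternative route. Pearson's r of log2 levels, taken as a description over 10034 other genes, was highest for *Cyp27a1* with 0610031O16Rik (0.96), *Lama3*, *Aadat*, *Naa60* and *Adra1b* (0.95 each). For *Cyp7b1* it was highest with *Cadm4* (0.97), *Lifr*, *Adra1b* and *Susd4* (0.96 each) and *Lama3* (0.95), so *Adra1b* and *Lama3* stood in both lists. For *Cyp8b1* it was *Pex14* (0.92), *Faah* and *Rbpms2* (0.90 each), *Sec14l2* (0.88) and *Nsmf* (0.87). *Cyp7a1* had no gene over 0.73 (*Adhfe1*), and *Srd5a1*, a steroid reductase, was at 0.66. Between the enzymes themselves, r was 0.90 for *Cyp27a1* with *Cyp7b1*, 0.92 for *Cyp7b1* with *Cyp2c70*, and 0.15 for *Cyp7a1* with *Cyp8b1*. The points are livers of the same 6 groups, so they share diet and treatment.

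Over deviations from the group means, which leave out the groups, the lists changed. *Cyp7a1* was then most like *Patj* (0.86) and *Cyp2c70* (0.83), *Cyp8b1* like *Hadh* (0.91), an enzyme of fatty acid oxidation, and *Cyp2d22* (0.87), *Cyp27a1* like *Bhmt2* (0.91) and *Hdac10* (0.89), and *Cyp7b1* like *Moxd1* (0.84) and *Cox18* (0.80). *Cyp7a1* with *Cyp8b1* was at −0.11, *Cyp27a1* with *Cyp7b1* at 0.46 and *Cyp8b1* with *Baat* at 0.72.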
